A study of Homo sapiens with 12 samples.

Results

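The SLC25 carriers are the proteins that move adenine nucleotides, phosphate, citrate, amino acids, cofactors and other small molecules across the inner mitochondrial membrane. Their mRNAs were taken as every gene whose symbol is SLC25A followed by a number and whose gene type is protein coding or not given. This rule used names and no measured value, and it found 49 gene IDs of the 57773 genes in the RNA sequencing tables. They carry 48 symbols, since SLC25A10 is listed under 2 IDs, of which the second has length 0 and no reads. By gene ID, 48 of them were found among the 19892 genes of the footprint sheets, and the one not found there was SLC25A53. A further 43 genes with SLC25A names, pseudogenes and antisense genes, were left out.

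The study used APEX2, an engineered peroxidase that tags nearby proteins with biotin for a brief time, to collect proteins from one place in the cell together with the RNA crosslinked to them. All lines were made in HEK293 T-REx cells, which derive from human embryonic kidney and switch on a transgene with doxycycline, and the question was which transcripts lie near each tagged place. The negative control carried the T-Rex genotype with no APEX2. The V5-APEX2-NES line carried APEX2 with a nuclear export signal, the V5-H2B-APEX2 line carried it on a histone, and the Connexin43-EGFP-APEX2 line carried it on GJA1, the gap junction protein Connexin43, with a green fluorescent protein. All lines, the control included, were kept for 16 h with 4-thiouridine, a photoreactive base, and with doxycycline, and biotin-phenol was present for 30 min. The APEX2 lines are stable lines with an inducible transgene, and the sources used here do not say whether each is 1 clone. Each line gave total RNA, RNA bound to the captured proteins, and footprints, the RNA pieces left crosslinked to those proteins, which makes 12 groups of 1 sample. Bound RNA was listed in a 2016 table for 3 lines and in a 2017 table for all 4 lines. The sources used here also leave unstated whether the 2 tables hold separate cultures.

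Carriers are made in the cytosol on nuclear mRNAs and lack, for the most part, a cleaved presequence. They pass the TOM pore of the outer membrane, are met by small TIM chaperones between the membranes and are inserted by the TIM22 complex. Presequence proteins instead use the TIM23 complex and its motor. In dividing cells the ADP/ATP carriers and the phosphate carrier, which supply the ATP synthase with its substrates and export its product, are the abundant members. SLC25A5 and SLC25A6 encode a pair of closely related ADP/ATP carriers whose transcripts differed in base composition, and SLC25A1 and SLC25A13 encode the citrate carrier and an aspartate/glutamate carrier.

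The first 150 coding bases of these 4 transcripts are shown because the differences between the nuclear and cytosolic lines moved with their base composition. The sequences are the reference of GENCODE 29 on GRCh38, and capitals mark a G or C at the third position of a codon.
SLC25A5: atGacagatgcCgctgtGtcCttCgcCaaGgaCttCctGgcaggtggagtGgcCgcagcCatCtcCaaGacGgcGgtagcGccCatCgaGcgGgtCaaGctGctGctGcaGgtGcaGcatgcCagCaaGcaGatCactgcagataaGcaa
SLC25A6: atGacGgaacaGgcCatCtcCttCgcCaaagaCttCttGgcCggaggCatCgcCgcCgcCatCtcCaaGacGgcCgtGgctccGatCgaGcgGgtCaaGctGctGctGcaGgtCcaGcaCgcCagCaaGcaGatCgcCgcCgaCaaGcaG
SLC25A1: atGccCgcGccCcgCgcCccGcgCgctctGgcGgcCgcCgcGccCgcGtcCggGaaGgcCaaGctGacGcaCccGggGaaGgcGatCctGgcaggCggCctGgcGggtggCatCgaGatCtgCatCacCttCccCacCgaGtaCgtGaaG
SLC25A13: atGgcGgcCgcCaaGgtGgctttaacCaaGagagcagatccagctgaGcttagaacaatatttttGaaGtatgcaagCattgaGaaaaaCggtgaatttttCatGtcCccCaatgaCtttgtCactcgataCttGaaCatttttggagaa
In these stretches of 50 codons, 37 codons of SLC25A5, 46 of SLC25A6, 47 of SLC25A1 and 23 of SLC25A13 ended in G or C. Over the whole coding sequence the share was 59.5% for SLC25A5, 90.0% for SLC25A6, 84.6% for SLC25A1 and 40.9% for SLC25A13. The SLC25A5 and SLC25A6 coding sequences, of 897 bases each, were identical at 78.8% of positions. Of their 190 differences 150 lay at the third position of a codon, where 101 gave G or C in SLC25A6 only and 10 in SLC25A5 only. Over whole transcripts, the GC content was 49.45% for SLC25A5, 64.89% for SLC25A6, 65.59% for SLC25A1 and 44.86% for SLC25A13. Over the 48 members with a value its median was 50.6%, with a range of 34.2 to 65.6%, against a median of 49.4% over 19242 protein-coding genes. In the deposited tables (build hg19, whose counting of the first base is not stated) SLC25A5 lies on the plus strand of chromosome X at 118602362 to 118605282. SLC25A6 lies on the minus strand of chromosome X at 1505044 to 1511617, SLC25A1 on the minus strand of chromosome 22 at 19163094 to 19166343, and SLC25A13 on the minus strand of chromosome 7 at 95749531 to 95951459.

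The bound libraries held 8959049 to 22952389 reads on genes and the total libraries 33672152 to 56785950, of which protein-coding genes took 23.3 to 60.1% and 11.9 to 20.4%. Of the 49 members 46 had at least 10 reads in some library and 25 in every library. Single libraries had 33 to 45 members at that count, and the fewest were in total RNA of H2B-APEX2. The 3 members under 10 reads in every library were SLC25A2, SLC25A31 and the second SLC25A10. No member was listed at 0 in a library while abundant in others, which 151 genes of the tables were. The 5 genes of a HEK293 marker list summed to 4.13 to 23.8 RPKM (reads per kilobase of transcript, scaled to library size) over the 11 libraries, with PAX2 at 0 in 6 libraries. GJA1, the gene behind the Connexin43 fusion, had 0.243 RPKM in total RNA of the Connexin43 line and 0.0815 to 0.194 in the other lines. In bound RNA it had 4.63 in 2016 and 1.34 in 2017 in the Connexin43 line, against 8.31 and 0.952 in the control.

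Summed over its members, the family took a larger share of the protein-coding reads in total RNA than in bound RNA of the same line. This sum rests mainly on SLC25A5, SLC25A6, SLC25A3 and SLC25A1. They took 89.0 to 92.2% of the family's RPKM in total RNA and 69.4 to 82.6% in 2017 bound RNA. The sum does not describe the other members, whose share was not computed apart. In total RNA the share was 0.486% in the control, 0.408% in APEX2-NES, 0.485% in the H2B-APEX2 line and 0.409% in Connexin43-APEX2. In bound RNA of 2017 it was 0.200%, 0.273%, 0.176% and 0.329% in the same order, and in 2016 it was 0.205% in the control, 0.262% in APEX2-NES and 0.272% in Connexin43-APEX2. Connexin43-APEX2 was highest and H2B-APEX2 lowest in the 2017 bound libraries, and the control was lowest in 2016. In bulk samples, fewer cells of a type and less RNA per cell cannot be told apart. Reads of SLC25A5 and its 9 pseudogenes fell on the pseudogenes to 2.84 to 7.60%, and the 6 SLC25A6 pseudogenes took up to 2.93%, so the levels of these genes are uncertain to about that extent.

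SLC25A5 had the highest level of the family in every library. This ADP/ATP carrier of growing cells had 147.71 RPKM in total RNA of the control, 82.85 in APEX2-NES, 107.96 in the H2B-APEX2 line and 91.99 in Connexin43-APEX2. Its 2017 bound levels were 30.26 in the control, 28.70 in APEX2-NES, 31.73 in the H2B-APEX2 line and 38.91 in Connexin43-APEX2, and its 2016 bound levels were 35.06 in the control, 15.80 in APEX2-NES and 77.58 in Connexin43-APEX2. Every bound level of SLC25A5 was below every total level, and the 2017 bound levels lay close together. Levels in RPKM are not centred here. In 2016 the median gene of APEX2-NES bound RNA lay at −1.64 against the control on the log2 scale. Low 2016 levels in that line are thus not particular to carriers.
SLC25A6, the second ADP/ATP carrier, had 72.17 RPKM in total RNA of the control, 22.36 in APEX2-NES, 41.74 in the H2B-APEX2 line and 33.04 in Connexin43-APEX2. Its 2017 bound levels were 19.89, 23.37, 10.76 and 36.45 RPKM in the same order, and its 2016 bound levels were 31.43 in the control, 12.05 in APEX2-NES and 45.45 in Connexin43-APEX2. H2B-APEX2 was the lowest 2017 bound library and Connexin43-APEX2 the highest, and in APEX2-NES and Connexin43-APEX2 the 2017 bound level was about as high as the total level. The ratio of SLC25A5 to SLC25A6 in RPKM was 2.95 in bound RNA of H2B-APEX2, against 1.52 in the control, 1.23 in APEX2-NES and 1.07 in Connexin43-APEX2 in the 2017 table. In total RNA the ratio ranged from 2.05 in the control to 3.71 in APEX2-NES.

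SLC25A3, which carries phosphate for ATP synthesis, was even across the 2017 bound libraries. Its RPKM was 28.76 in total RNA of the control, 19.02 in APEX2-NES, 20.54 in the H2B-APEX2 line and 20.73 in Connexin43-APEX2, and 12.50, 12.87, 15.59 and 12.39 in 2017 bound RNA in that order. The 2016 bound levels were 23.78 in the control, 4.92 in APEX2-NES and 24.87 in Connexin43-APEX2. Its 2017 bound level was highest in H2B-APEX2, by a small margin.
SLC25A1, which exports citrate for lipid synthesis, had 17.95 RPKM in total RNA of the control, 10.84 in APEX2-NES, 27.98 in the H2B-APEX2 line and 6.22 in Connexin43-APEX2. In 2017 bound RNA it had 10.74, 15.50, 6.23 and 8.60 RPKM in that order, and in 2016 it had 12.81 in the control, 4.92 in APEX2-NES and 22.57 in Connexin43-APEX2. H2B-APEX2 was highest in total and lowest in 2017 bound RNA, while Connexin43-APEX2 was below the control and APEX2-NES in both fractions of that table. SLC25A5, SLC25A6, SLC25A3 and SLC25A1 together took 58.1 to 92.2% of the family's RPKM in the 11 libraries.

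SLC25A39 came next, and the members below it were read at a few RPKM or less. SLC25A39, needed for mitochondrial glutathione import, had 12.08 RPKM in total RNA of the control, 8.49 in APEX2-NES, 10.56 in the H2B-APEX2 line and 6.04 in Connexin43-APEX2, and 2.20 to 6.30 RPKM over the 7 bound libraries. SLC25A13, the aspartate/glutamate carrier citrin, had 5.64 RPKM in bound RNA of H2B-APEX2, against 0.84 in the control, 1.15 in APEX2-NES and 0.41 in Connexin43-APEX2 in 2017. Its 2016 bound levels were 1.89, 0.33 and 3.83 in the control, APEX2-NES and Connexin43-APEX2, and its total levels were 0.38 to 1.43. The H2B-APEX2 bound library was thus the highest of all 11 for SLC25A13. SLC25A10, the dicarboxylate carrier, was lowest in H2B-APEX2 in 2017 bound RNA, with 1.91 RPKM in the control, 1.73 in APEX2-NES, 0.42 in the H2B-APEX2 line and 0.85 in Connexin43-APEX2. SLC25A11, the oxoglutarate carrier, had 1.44 in both the control and APEX2-NES, 0.68 in the H2B-APEX2 line and 1.05 in Connexin43-APEX2. SLC25A23, a calcium-regulated ATP-Mg/phosphate carrier, was even at 1.97 to 2.40 RPKM over these 4 libraries. SLC25A33, a pyrimidine nucleotide carrier, had 1.96 in the control, 1.30 in APEX2-NES, 1.07 in the H2B-APEX2 line and 0.69 in Connexin43-APEX2. By mean bound level the order was SLC25A5 at 36.86, SLC25A6 at 25.63, SLC25A3 at 15.27, SLC25A1 at 11.62, SLC25A39 at 3.76, SLC25A11 at 2.45, SLC25A23 at 2.43, SLC25A13 at 2.01, SLC25A10 at 1.82 and SLC25A33 at 1.77. Neighbours from SLC25A11 to SLC25A33 had library ranges that overlapped widely, and the remaining members had means of 1.71 RPKM or less.

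**Figure D1:**
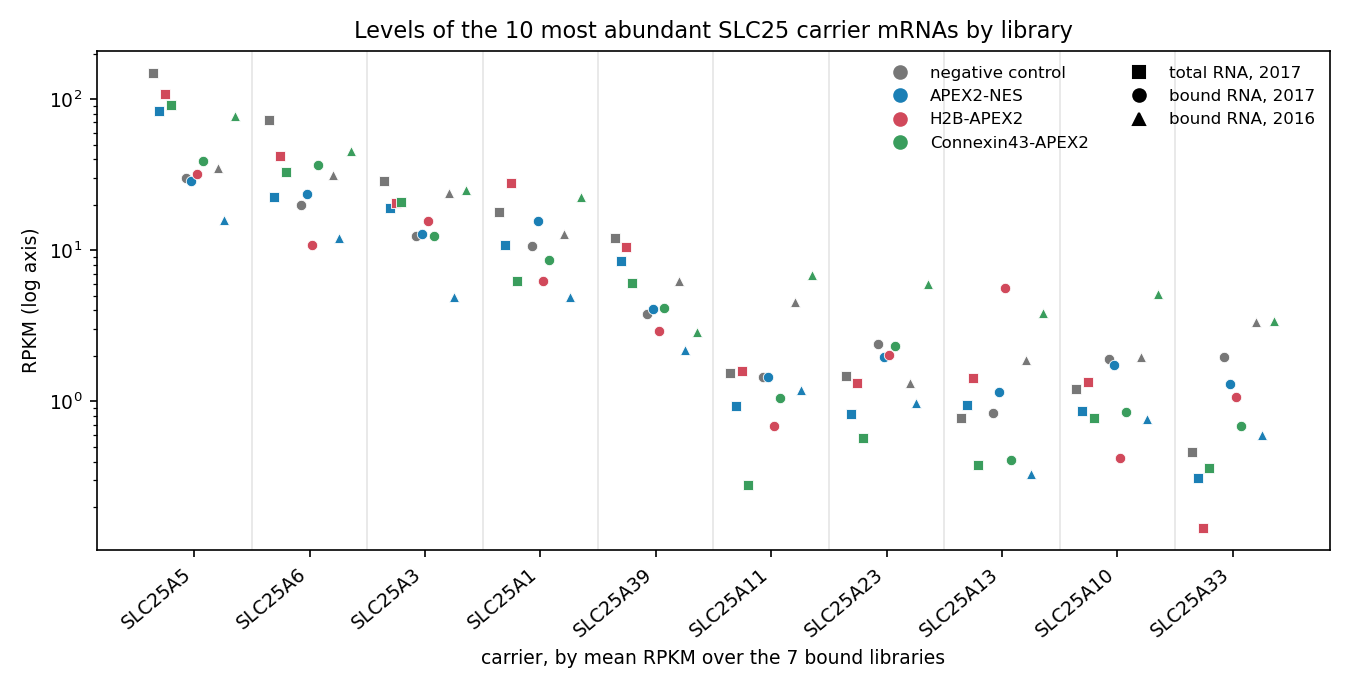
Level in RPKM (log axis) of the 10 carriers with the highest mean bound level, 1 point for each of 11 libraries, with colour for the line and shape for total RNA, bound RNA of 2017 and bound RNA of 2016. For SLC25A5 the total libraries lie at 82.85 to 147.71 and the bound libraries at 15.80 to 77.58, and SLC25A13 stands at 5.64 in bound RNA of H2B-APEX2.

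To compare places, the 2017 difference between bound and total RNA of one line was set against that of another, on the log2(RPKM + 1) scale and relative to the median gene. The 2016 values compare bound RNA alone, since no total RNA of a named line was used from that table. With 1 sample in each group there was no test across replicates. A difference counted as past the size rule when it reached 2-fold in each table that held both lines, among genes with a mean of at least 1 RPKM, and the standard errors given are counting errors only.

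Between H2B-APEX2 and APEX2-NES, the nuclear and the cytosolic line, SLC25A1, SLC25A6 and SLC25A10 were lower in H2B-APEX2 and SLC25A13 was higher. Of the 9 members that could be compared, 3 were lower, beside 24.9% of all 5055 genes, and 1 was higher, beside 25.1%. The log2 difference was −2.50 for SLC25A1 (SE 0.07), −1.94 for SLC25A6 (SE 0.05), −1.30 for SLC25A10 (SE 0.16) and 1.28 for SLC25A13 (SE 0.09). SLC25A10 passed the level filter only through its APEX2-NES bound level of 1.73 RPKM, so its entry was not independent of its call. SLC25A11 at −0.97, SLC25A39 at −0.68, SLC25A23 at −0.34, SLC25A5 at −0.25 and SLC25A3 at 0.14 stayed within the 2-fold limit. The median of the members was −0.68 and that of protein-coding genes 0.08. In bound RNA alone the difference was −1.27 for SLC25A1, −1.13 for SLC25A6, −1.02 for SLC25A10 and 1.54 for SLC25A13, so the difference of SLC25A1 was smaller when the total RNA of the lines was left out. By role, the ADP/ATP carriers had 1 of 2 compared members lower, and the carriers of carboxylates and amino acids had 2 of 4 lower and 1 higher.

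Base composition moved with these differences. Over the 9 members the correlation with the GC content of the transcript was −0.87, and over 2857 protein-coding genes it was −0.57. The 9 include SLC25A10, whose entry was not independent of its value. Both correlations are descriptions across genes of the same libraries, which share depth and composition and are not independent replicates. Of the related ADP/ATP carriers, SLC25A6 was past the limit and SLC25A5 within it, and the sequences above show how the third codon positions differ. With the trend of GC content over protein-coding genes removed, SLC25A1 remained past the limit at −1.20, while SLC25A6 was −0.64, SLC25A13 was 0.58 and SLC25A10 was 0.00383.

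In Connexin43-APEX2 against H2B-APEX2, SLC25A1, SLC25A6 and SLC25A39 were higher and SLC25A13 was lower. Of the 7 members compared, 3 were higher, beside 25.2% of all 4810 genes, and 1 was lower, beside 24.0%. The log2 difference was 2.65 for SLC25A1 (SE 0.08), 2.23 for SLC25A6 (SE 0.05), 1.36 for SLC25A39 (SE 0.08) and −1.18 for SLC25A13 (SE 0.09). SLC25A13 passed the level filter only through its H2B-APEX2 bound level of 5.64 RPKM, so its entry was not independent of its call. SLC25A23 at 0.94, SLC25A5 at 0.75 and SLC25A3 at −0.09 stayed within the limit. In bound RNA alone SLC25A6 was 2.01 and SLC25A13 was −1.89, whereas SLC25A1 and SLC25A39 were both 0.75 and thus within the limit. The correlation with GC content was 0.92 over the 7 members, SLC25A13 included, and 0.63 over 2655 protein-coding genes. With the GC trend removed SLC25A1 was 1.21, SLC25A6 was 0.79, SLC25A39 was −0.0743 and SLC25A13 was −0.60. This comparison shares its H2B-APEX2 libraries with the one before.

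**Figure D2:**
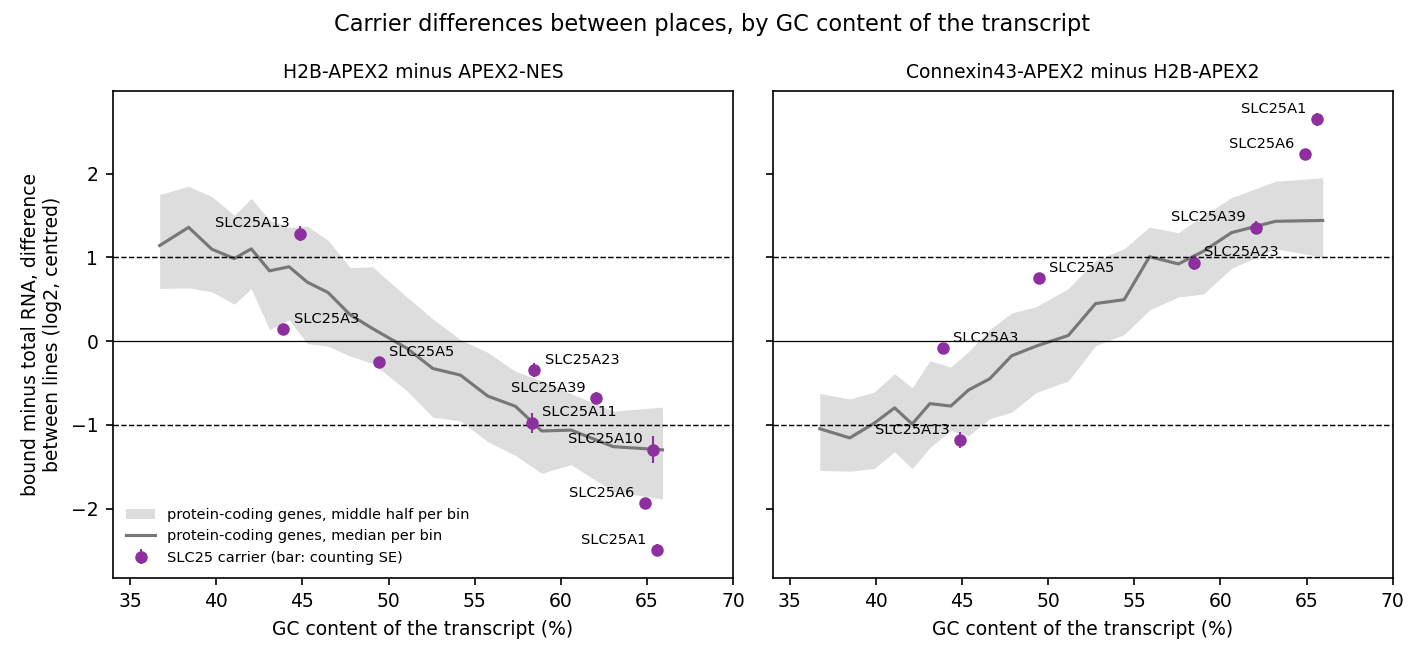
Log2 difference between lines of bound minus total RNA (vertical axis, relative to the median gene) against the GC content of the transcript in percent (horizontal axis) for each carrier compared, with counting SE, over the median and middle range of protein-coding genes in bins of GC content. SLC25A1 and SLC25A6 lie lowest at −2.50 and −1.94 for H2B-APEX2 minus APEX2-NES and highest at 2.65 and 2.23 for Connexin43-APEX2 minus H2B-APEX2, both outside the grey range.

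Between Connexin43-APEX2 and APEX2-NES no member of the 10 compared was past the size rule in both tables, beside 3.84% of all 6325 genes in either direction. This rule sets bound RNA of 2016 beside bound minus total RNA of 2017, which are different measures. In 2017 bound minus total RNA gave 0.43 for SLC25A5, 0.22 for SLC25A6, 0.08 for SLC25A1, −0.02 for SLC25A3 and 0.61 for SLC25A39, with a median of 0.15 over the members. Of the 12 members that could be compared by bound RNA alone in both tables, 0 were past the rule. On that measure the 2016 and 2017 tables gave 0.64 and 0.60 for SLC25A5, 0.24 and 0.79 for SLC25A6, 0.40 and −0.61 for SLC25A1, and 0.54 and 0.12 for SLC25A3. SLC25A39 was the widest apart, at −1.31 in 2016 and 0.20 in 2017. The bound values were taken relative to a median shift over all genes of 1.59 on the log2 scale in 2016 and −0.18 in 2017.

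Against the background of the control, bound RNA gave few members past the rule. Few of all genes were past it too in Connexin43-APEX2 and APEX2-NES. In H2B-APEX2 SLC25A13 was the only one of 13 members compared, at 2.13 (SE 0.06), beside 42.4% of all 7543 genes in either direction. SLC25A13 passed the level filter only through its H2B-APEX2 level of 5.64 RPKM, against 0.84 in the control. Its entry was thus not independent of its call. SLC25A3 was 0.58, SLC25A46, an outer membrane protein linked to mitochondrial shape, was 0.49, SLC25A5 was 0.35, SLC25A1 was −0.42, SLC25A6 was −0.55 and SLC25A10 was −0.75. In Connexin43-APEX2 1 of 22 members was past it, beside 4.53% of 11289 genes. This was SLC25A15, an ornithine carrier of the urea cycle, at 1.18 in 2016 and 1.06 in 2017. Its bound levels were low, 2.58 RPKM against 0.78 in the control in 2016 and 0.93 against 0.17 in 2017. SLC25A15 passed the level filter only through its 2016 Connexin43-APEX2 level, so its entry was not independent of its call. Without centring its 2017 value was 0.72, and it was not called without centring, without the filter on low values or with TMM scaling. SLC25A5 was 1.30 and 0.69, and SLC25A6 was 0.69 and 1.18, each past the limit in one table. In APEX2-NES no member of 16 was past it, beside 2.68% of 9266 genes, with SLC25A5 at 0.53 and 0.09, SLC25A6 at 0.32 and 0.39 and SLC25A1 at 0.41 and 0.65.
Markers of other cells varied between these libraries too. The 9 genes of a fibroblast list summed in bound RNA to 203 RPKM in the control and 19.7 and 19.2 in APEX2-NES and Connexin43-APEX2 in 2016. In 2017 the sums were 45.4 in the control, 31.9 in APEX2-NES, 1.04 in the H2B-APEX2 line and 15.3 in Connexin43-APEX2, and in total RNA they were 1.58 to 6.0. POSTN of this list was at 0 in 5 libraries. The 4 genes of a blood list summed to 0.511 to 2.56 in bound and 8.51 to 34.5 in total RNA, with HBB at 0 in all libraries. Their part in the carrier differences was not tested.

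Within lines, bound RNA was set against total RNA relative to the median gene, which lay at 0.66 in the control, 0.42 in APEX2-NES, 0.71 in the H2B-APEX2 line and 0.18 in Connexin43-APEX2 on the log2 scale. More carriers passed the rule as lower in the control and H2B-APEX2 than in the other lines. In the control 5 of 10 members were past the rule as lower, beside 33.2% of 6161 genes. In APEX2-NES 2 of 9 were lower, beside 29.2% of 4861 genes, in H2B-APEX2 6 of 8, beside 33.2% of 5143, and in Connexin43-APEX2 1 of 6, beside 29.3% of 4253. SLC25A5 was lower in all 4 lines, at −2.91 in the control, −1.91 in APEX2-NES, −2.45 in the H2B-APEX2 line and −1.40 in Connexin43-APEX2. SLC25A6 was −2.47, −0.36, −2.58 and −0.05 in the same order, and without centring it was 0.06 in APEX2-NES. The 2 ADP/ATP carriers were thus alike in the control and H2B-APEX2 and apart in the other lines. SLC25A1 was −1.35, 0.06, −2.72 and 0.23, SLC25A3 was −1.80, −0.95, −1.09 and −0.88, and SLC25A39 was −2.12, −1.32, −2.28 and −0.63. SLC25A23 was −0.21, 0.29, −0.34 and 0.89. These were the 6 members compared in all 4 lines. In 6 of 6 both APEX2-NES and Connexin43-APEX2 lay above the control and H2B-APEX2, for SLC25A3 by a small margin. The share of all genes with this order was not counted, so the order cannot be read as particular to carriers. Other abundant transcripts also differed between lines. Among protein-coding genes with at least 10 RPKM in total RNA, 87.6% of 477 were lower in the control, 62.9% of 361 in APEX2-NES, 73.7% of 445 in the H2B-APEX2 line and 52.7% of 330 in Connexin43-APEX2. Among those with at least 10 RPKM in both fractions the share was 77.4% of 234 in the control, 54.1% of 255 in APEX2-NES, 54.1% of 246 in the H2B-APEX2 line and 45.2% of 239 in Connexin43-APEX2. Asking for 10 RPKM in bound RNA leaves out poorly recovered genes. These shares therefore cannot show whether the lines recovered abundant transcripts alike. Total libraries were depleted of ribosomal RNA and bound libraries were not, per the labels' protocols, and whether this moved the values was not tested.

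**Figure D3:**
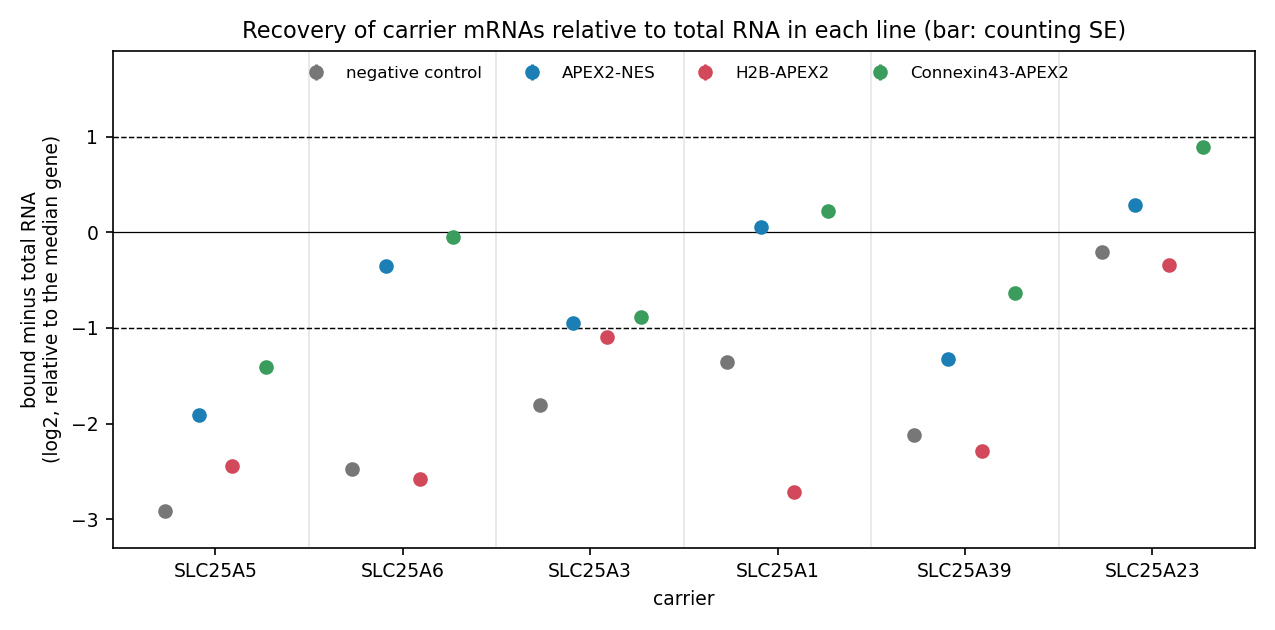
Log2 difference between bound and total RNA (vertical axis, relative to the median gene) in each line for the 6 carriers compared in all 4 lines, with counting SE and dashed lines at the 2-fold limit. For SLC25A6 the points are at −2.47 in the control, −0.36 in APEX2-NES, −2.58 in the H2B-APEX2 line and −0.05 in Connexin43-APEX2.

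Total RNA of the lines differed as well. SLC25A6 was lower in APEX2-NES than in the control, at −1.29 (SE 0.02), and was the only one of 8 members past the rule, beside 11.0% of 3584 genes in either direction. In H2B-APEX2 no member of 9 was past it, beside 4.41% of 3671 genes, with SLC25A1 at 0.79 and SLC25A13 at 0.63. In Connexin43-APEX2 no member of 6 was past it, beside 18.6% of 3556 genes, with SLC25A1 at −0.96 and SLC25A6 at −0.67.

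Few genes of the machinery that imports and inserts carriers were past the rule between the nuclear and cytosolic lines. In H2B-APEX2 against APEX2-NES, 1 of 8 compared genes of the carrier import list of 17 was higher and 1 was lower, with a median of −0.36, beside 25.1% higher and 24.9% lower over all genes. The higher one was TOMM20, a receptor of the outer membrane, at 1.52 (SE 0.07), with 21.7 RPKM against 3.89 in bound RNA, and the lower one was TIMM13, a small TIM chaperone, at −1.60 (SE 0.10), with 4.48 RPKM against 11.9. Of the presequence list, 6 of 9 genes were compared. HSPA9, the motor chaperone, was higher at 1.71, with 23.9 RPKM against 4.81, and DNAJC19, its partner, at 1.09. TIMM50 and TIMM17B, parts of the TIM23 complex, were lower at −1.15 and −1.42. Family members under other symbols gave MTCH1, an outer membrane protein, at −1.28, the uncoupling protein UCP2 at −1.05 and MTCH2 at −0.17. Among other pores and carriers 2 of 7 were higher, MPC1 of the pyruvate carrier at 2.18 and CCDC109B of the calcium uniporter at 1.40, and none was lower. The VDAC pores of the outer membrane were within the limit, at 0.22 for VDAC1, 0.83 for VDAC2 and 0.77 for VDAC3.
In Connexin43-APEX2 against H2B-APEX2, 4 of 7 compared genes of the carrier import list were higher and 1 was lower, beside 25.2% and 24.0% over all genes. The higher ones were TIMM13 at 1.81, TOMM40, the pore itself, at 1.49, TIMM10 at 1.27 and TOMM22 at 1.00, and TOMM20 was lower at −1.23. Of the presequence list TIMM17B at 2.40 and TIMM50 at 1.49 were higher and HSPA9 at −1.50 was lower among 5 compared, and MTCH1 was higher at 1.61. Between Connexin43-APEX2 and APEX2-NES no gene of the 4 lists was past the rule, of 3, 8, 5 and 9 compared.

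Footprints gave another readout of the family. The authors' sheets give reads in called clusters for each gene, so 0 means that no cluster was called in that library. The lines held 185487 footprint reads in the control, 575990 in APEX2-NES, 1741844 in the H2B-APEX2 line and 270633 in Connexin43-APEX2, of which 408, 1478, 3123 and 710 were on carriers. The carriers' share was 0.220% (95% exact binomial interval 0.199 to 0.242) in the control, 0.257% (0.244 to 0.270) in APEX2-NES, 0.179% (0.173 to 0.186) in the H2B-APEX2 line and 0.262% (0.243 to 0.282) in Connexin43-APEX2. H2B-APEX2 was lowest and its interval met no other, while those of APEX2-NES and Connexin43-APEX2 overlapped. Such intervals cover counting error only, as reads of amplified libraries are not independent molecules. Cluster presence was counted over members only, with no share over all genes beside it. At least 1 cluster was called on 23, 25, 35 and 20 of the 48 members in the same order, and 12 members had none in any line. These were SLC25A1, SLC25A6, SLC25A2, SLC25A18, SLC25A31, SLC25A41, SLC25A43, SLC25A45, SLC25A47, SLC25A48, SLC25A52 and the second SLC25A10.

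The carrier with most footprint reads differed between lines. It was SLC25A3 in the control and APEX2-NES, SLC25A36 in the H2B-APEX2 line and SLC25A5 in Connexin43-APEX2. SLC25A36, a pyrimidine nucleotide carrier whose mean bound level was 0.68 RPKM, had 49 reads in the control, 168 in APEX2-NES, 805 in the H2B-APEX2 line and 99 in Connexin43-APEX2. In H2B-APEX2 its reads fell in 70 clusters, with 94 reads in coding sequence, 372 in the 3′ UTR and 196 in introns. SLC25A3 had 71, 186, 277 and 35 reads in the same order, 69.9% of them in coding sequence, and SLC25A10 had 53, 174, 223 and 52, with 42.2% in introns. SLC25A46 had 21, 19, 264 and 10 reads, and SLC25A37, the iron importer mitoferrin, had 0, 65, 186 and 18. SLC25A5 had 19, 96, 7 and 128 reads, 78.4% of them in coding sequence and 0 in the 3′ UTR. Connexin43-APEX2 was thus highest and H2B-APEX2 lowest for SLC25A5 although H2B-APEX2 held the most footprint reads, whereas H2B-APEX2 was highest for SLC25A36 and SLC25A46. Reads of SLC25A5 lay in few clusters, 2 in the control, 5 in APEX2-NES, 1 in the H2B-APEX2 line and 4 in Connexin43-APEX2. Across the 48 members, Spearman's rho of footprint reads with 2017 bound RPKM was 0.491 in the control, 0.528 in APEX2-NES, 0.423 in the H2B-APEX2 line and 0.581 in Connexin43-APEX2, a description across genes.

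**Figure D4:**
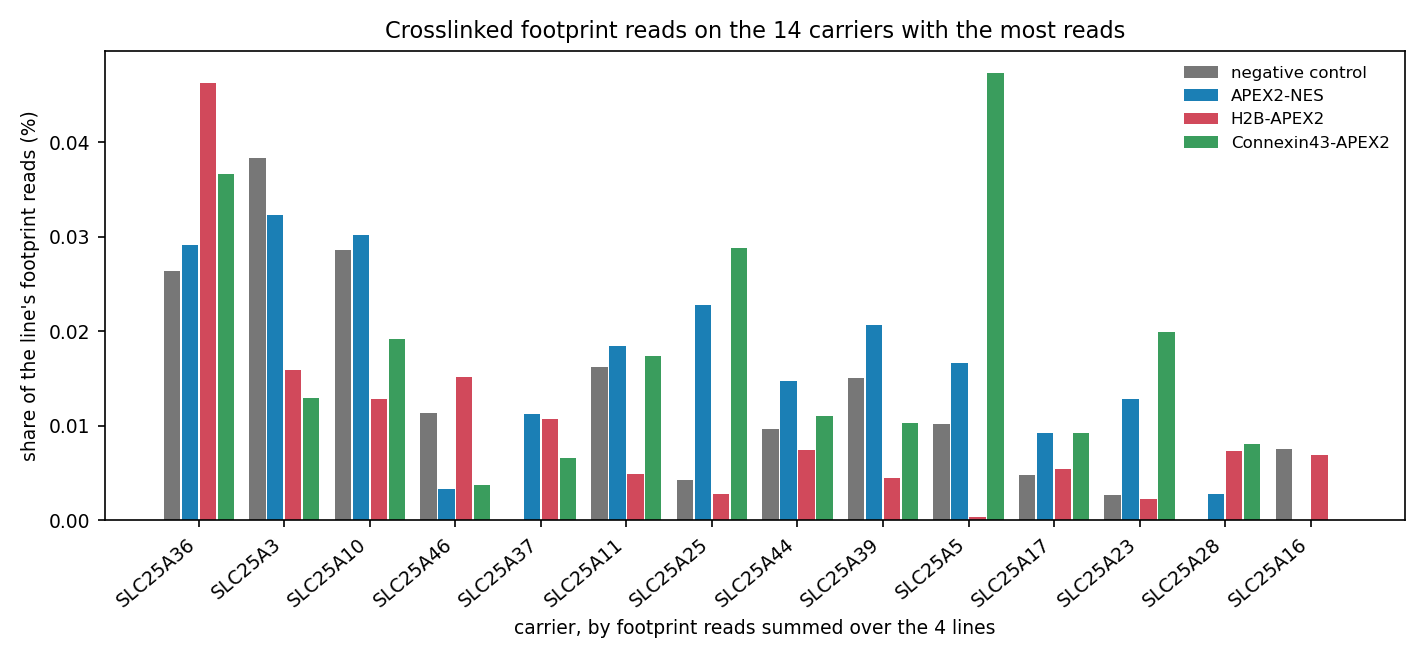
Share of each line's footprint reads in percent (vertical axis) on the 14 carriers with the most reads over the 4 lines, 1 library a bar. SLC25A5 had 128 reads in Connexin43-APEX2 and 7 in H2B-APEX2, and SLC25A36 had 805 in H2B-APEX2.

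Ratios of shares between lines were called at 4-fold with an exact 95% interval beyond 2-fold, among members with at least 10 reads over the pair of lines. Genes with clusters in one line only were not called, and their share over all genes was not counted. Counts of such members below therefore have no background beside them. For H2B-APEX2 against APEX2-NES 30 members were compared. Those lower were SLC25A5 at 0.0241 (0.00944 to 0.0516), the ATP-Mg/phosphate carriers SLC25A25 at 0.121 (0.0852 to 0.170) and SLC25A23 at 0.174, the glutamate carrier SLC25A22 at 0.203, the glycine carrier SLC25A38 at 0.212, SLC25A39 at 0.220 and the muscle and heart ADP/ATP carrier SLC25A4 at 0.241 (0.141 to 0.407). SLC25A46 was higher at 4.59 (2.88 to 7.75), which makes 8 calls in either direction beside 16.1% of all 9222 genes. With exonic reads only, 0 members were higher and 4 lower. SLC25A36, with the most reads, was 1.58 (1.34 to 1.88) and not called. A further 6 members, SLC25A13, SLC25A14, SLC25A15, SLC25A16, SLC25A29 and SLC25A40, had clusters in H2B-APEX2 and none in APEX2-NES, and SLC25A13 had 87 reads there. H2B-APEX2 held more footprint reads than APEX2-NES, 1741844 against 575990. Against APEX2-NES, SLC25A13 was thus higher in H2B-APEX2 in bound RNA and had footprint clusters there alone, while SLC25A5, at −0.25 between these lines in RNA, had the lowest ratio of the footprints.
For Connexin43-APEX2 against H2B-APEX2 30 members were compared, beside 13.4% of all 9044 genes called. SLC25A5 was higher at 118 (55.5 to 299), SLC25A25 at 10.5, SLC25A23 at 8.91 and SLC25A38 at 5.23, and SLC25A46 was lower at 0.244, a call lost with exonic reads only. Other members had clusters in H2B-APEX2 and none in Connexin43-APEX2, among them 121 reads for SLC25A16, 87 for SLC25A13, 80 for SLC25A29 and 18 to 51 for SLC25A12, SLC25A14, SLC25A15, SLC25A24, SLC25A27 and SLC25A40. H2B-APEX2 held the most footprint reads and Connexin43-APEX2 held fewer, 1741844 against 270633. For Connexin43-APEX2 against APEX2-NES 20 were compared, and SLC25A51, which carries NAD, at 7.45 and SLC25A33 at 6.81 were higher, beside 5.69% of 6893 genes. Both rest on few reads, and 1 call was left with exonic reads only or with at least 20 reads. The reads were 14 against 4 for SLC25A51 and 16 against 5 for SLC25A33.
Against the control, 31 members were compared for H2B-APEX2, of which SLC25A5 at 0.0392, SLC25A21, an oxodicarboxylate carrier, at 0.0426 and SLC25A51 at 0.177 were lower, beside 7.14% of 8930 genes. With exonic reads only, 1 member was lower, and the SLC25A21 ratio rests on 4 reads against 10. Others had clusters in H2B-APEX2 and none in the control, among them 186 reads for SLC25A37, 127 for SLC25A28, also a mitoferrin, and 16 to 51 for SLC25A12, SLC25A22, SLC25A27, SLC25A32 and SLC25A40. SLC25A13, called in bound RNA, was 1.32 (0.616 to 3.39) in footprints of H2B-APEX2 against the control and not called. In APEX2-NES SLC25A25 was higher at 5.27 and SLC25A51 lower at 0.0716, a call lost with exonic reads only, among 24 members, beside 7.70% of 6820 genes. Clusters in one of these libraries only were found for members that include SLC25A22, SLC25A28, SLC25A32 and SLC25A37 in APEX2-NES and SLC25A16, SLC25A21 and SLC25A29 in the control. In Connexin43-APEX2 SLC25A23 at 7.40, SLC25A25 at 6.68 and SLC25A5 at 4.62 were higher among 20, beside 7.85% of 5708 genes. On the control side these ratios rest on 5, 8 and 19 reads in that order, and 2 members were higher with exonic reads only. Here 6 members had clusters in one library only, SLC25A22, SLC25A28 and SLC25A37 in Connexin43-APEX2 and SLC25A16, SLC25A21 and SLC25A29 in the control. These comparisons share the control library, which held the fewest footprint reads of the 4.

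Counted by reads, carrier footprints in H2B-APEX2, the control and APEX2-NES held a larger intronic share than footprints over all protein-coding genes, beyond the counting interval. In H2B-APEX2 29.9% (28.3 to 31.6) of the carriers' reads were intronic, against 20.1% for all protein-coding genes, and 26.3% (24.8 to 27.9) were in coding sequence, against 36.0%. In the control 22.3% were intronic, against 10.4%, and 39.5% coding, against 41.4%. In APEX2-NES 7.17% were intronic, against 3.96%, and 43.7% coding, against 41.7%. In Connexin43-APEX2 9.15% were intronic, against 9.87%, and 41.0% coding, against 41.9%. The 3′ UTR took 32.4% of carrier reads in the control, 29.1% in APEX2-NES, 29.8% in the H2B-APEX2 line and 34.1% in Connexin43-APEX2. Single members weigh on these shares. In APEX2-NES 70 of the 106 intronic carrier reads lay on SLC25A10, and the share without this member was not computed. Without SLC25A36, its leading member, H2B-APEX2 had 31.9% intronic and 31.4% coding reads, and counted by clusters the intronic share was 44.1% (38.7 to 49.6). Over all protein-coding genes 39.6% of H2B-APEX2 clusters were intronic, which lies inside that interval. The larger intronic share in H2B-APEX2 thus held by reads and was not detectable by clusters. The same was true of the control, with 23.6% of carrier clusters intronic, against 14.1%, a value inside the carriers' counting interval. In APEX2-NES the larger share held by clusters too, at 12.1% (7.09 to 18.9) against 5.58%. Of its 16 intronic carrier clusters, 9 lay on SLC25A10. In APEX2-NES 53 of the 168 reads of SLC25A36 lay in the 5′ UTR, which took 5.41% of that line's carrier reads.

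**Figure D5:**
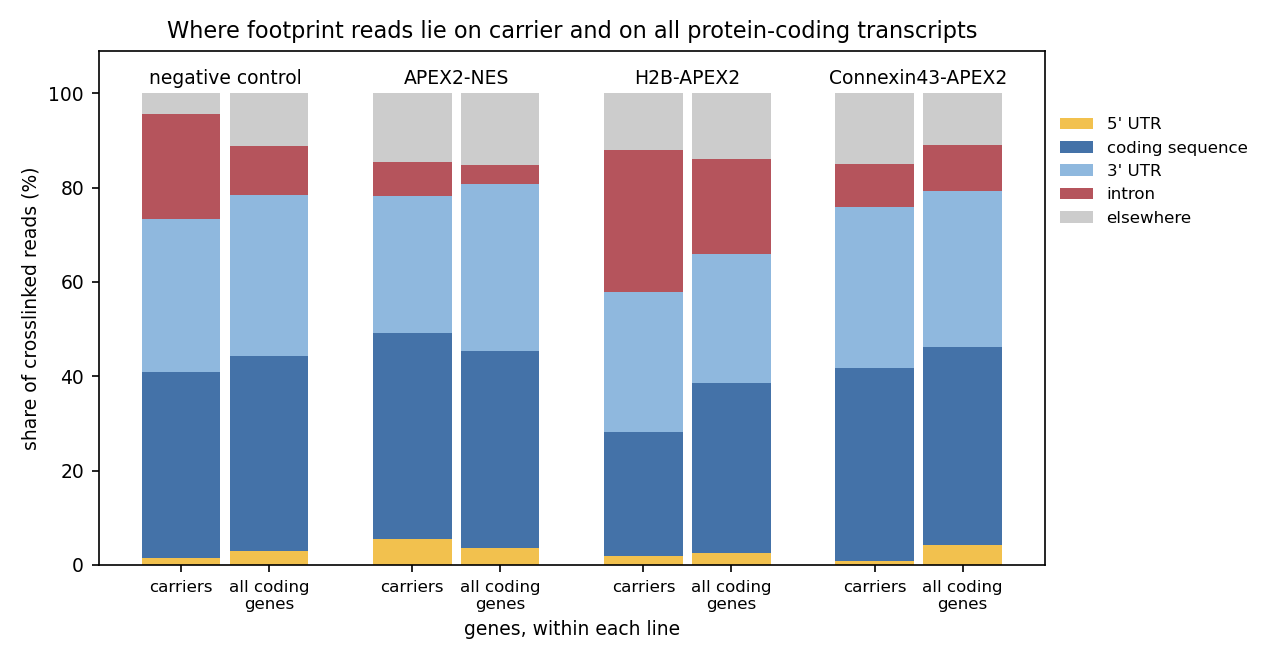
Share of crosslinked reads in percent (vertical axis) in each part of the transcript, for carriers and for all protein-coding genes within each line. The intronic part for carriers is 29.9% in H2B-APEX2 and 22.3% in the control, against 7.17% in APEX2-NES and 9.15% in Connexin43-APEX2.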

How the data were processed

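Bound, total and footprint RNA of 4 HEK293 T-REx lines were compared, with 1 sample in each of 12 groups. Reads were prepared with bcl2fastq 2.17.1 and mapped with TopHat to hg19, per the submitters' processing notes, and the counter and the cluster caller are not given in the sources used here. Expected counts per gene, to which 0.001 had been added, were deposited beside RPKM, where 1e-07 stands for 0. The deposited footprint sheets, 1 for each line, hold counts per gene of called clusters and of the crosslinked reads in them. In 2016, a column naming its line was read as bound RNA, and 2 value columns that name no line were not used.

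RPKM were compared as log2(RPKM + 1), centred on the median gene, over genes with a mean of at least 1 RPKM, with a size rule of 2-fold in each table. The delta method gave counting SE from the expected counts. Footprint ratios used counts with exact 95% intervals. Members and lists were chosen with earlier results of these data known. Named members were the 10 with the highest mean bound RPKM, the 5 with the most footprint reads and those past the size rule between APEX2 lines. Other members named for a ratio or a difference were chosen after their values were seen. One member is not reported by name here. Alternatives were a pseudocount of 0.1, no filter, no centring, TMM scaling of rounded expected counts with edgeR 4.0.16, bound RNA alone, each table alone, removal of a GC trend over 20 bins, at least 20 footprint reads, and exons only. The code of the size rule and of the ratio interval was run on simulated counts without variation between cultures, which does not test the reported differences. Software was R 4.3.3 and Python 3.11.15 with scipy 1.17.1, pandas 2.3.3, matplotlib 3.10.9 and numpy 2.4.6.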

Additional observations from a re-analysis of the deposited data

Results flagged for a closer look

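Some carriers had differences of opposite sign in the 2016 and 2017 tables, and the difference between the tables was not tested. All values here are of bound RNA alone in both tables, given as 2016 minus 2017. For SLC25A39 the log2 difference of Connexin43-APEX2 and APEX2-NES was −1.31 in 2016 and 0.20 in 2017, a gap of −1.51. For SLC25A10 the difference of Connexin43-APEX2 and the control in bound RNA was 1.22 in 2016 and −0.32 in 2017, 1.54 apart. For SLC25A23 the difference of APEX2-NES and the control in bound RNA was 1.40 in 2016 and −0.03 in 2017, 1.43 apart.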

How the results depend on the processing

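No paired analysis was possible because each group has 1 sample, and leaving out a sample empties its group. For H2B-APEX2 against APEX2-NES, 1 member was higher, which became 3 with TMM and 0 with the GC trend removed, and 3 were lower, which became 1 with the GC trend removed. For Connexin43-APEX2 against APEX2-NES, 0 became 1 in 2016 alone. For Connexin43-APEX2 against H2B-APEX2, 3 higher became 7 with TMM, 1 in bound RNA alone and 1 with the GC trend removed, and 1 lower became 2 with TMM and 0 with the GC trend removed. Against the control, the 1 member in H2B-APEX2 became 2 with a pseudocount of 0.1, 4 without the filter, 2 without centring, 4 with TMM and 2 with the GC trend removed, an alternative chosen after seeing the data. The 1 member in Connexin43-APEX2 became 0 without the filter or without centring and 5 in 2016 alone, and 0 in APEX2-NES became 1 in 2016 alone. Within lines, 2 lower in APEX2-NES became 1 without centring and 6 with TMM, and 1 lower in Connexin43-APEX2 became 3 with TMM. In total RNA, 0 in H2B-APEX2 became 1 with a pseudocount of 0.1, and 0 in Connexin43-APEX2 became 2 without the filter, 2 without centring and 4 with TMM. With footprints in exons only, H2B-APEX2 against APEX2-NES had 0 higher and 4 lower, Connexin43-APEX2 against APEX2-NES 1 higher, Connexin43-APEX2 against H2B-APEX2 0 lower, H2B-APEX2 against the control 1 lower and APEX2-NES against the control 0 lower. Connexin43-APEX2 then had 6 higher against H2B-APEX2 and 2 higher against the control. At 20 reads or more, Connexin43-APEX2 against APEX2-NES had 1 higher.

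Counted by clusters, the coding share became 30.9% in the control, 19.2% in the H2B-APEX2 line and 36.8% in Connexin43-APEX2. The 3′ UTR share became 38.2% in the control and 26.9% in H2B-APEX2, and the intronic share became 12.1% in APEX2-NES, 44.1% in the H2B-APEX2 line and 14.7% in Connexin43-APEX2. Without the member with the most reads (SLC25A3 in the control and APEX2-NES, SLC25A36 in H2B-APEX2, SLC25A5 in Connexin43-APEX2), the coding share was 29.4%, 40.5%, 31.4% and 35.1% in that order. The 3′ UTR share was then 32.2% in APEX2-NES, 24.2% in the H2B-APEX2 line and 41.6% in Connexin43-APEX2, and the intronic share 27.0% in the control and 31.9% in H2B-APEX2. Of 581 values of single members under an alternative, 85 had the other sign, 23 of them without centring. Among members past the rule, 2 did so, both with the GC trend removed: SLC25A10 at 0.00383 for H2B-APEX2 against APEX2-NES and SLC25A39 at −0.0743 for Connexin43-APEX2 against H2B-APEX2. A further 13 values fell below the limit, 33 passed it and 309 were labelled as moved by more than the counting error. Whether each of the 309 stayed on its side of the limit is not given here. The other 224 were labelled as the same, but they included members that stayed past the rule and moved by more than that error. For H2B-APEX2 against APEX2-NES, SLC25A10 went from −1.30 (SE 0.16) to −2.44 with a pseudocount of 0.1 under that label. The cause of these changes was not tested. With 1 library in each group, spread between cultures could not be measured.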

Other observations

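Over the 11 RNA libraries, the abundant protein-coding genes whose levels moved most like those of each leading carrier were named among 449 genes with a mean of at least 10 RPKM. For SLC25A5 they were TMEM147 at a correlation of 0.957, the peroxiredoxin PRDX2 at 0.954 and the ribosomal protein RPL10A at 0.948. For SLC25A6 they were BSG at 0.916, HLA-C at 0.903 and AHCY at 0.838, and for SLC25A3 they were B2M at 0.768, RPL9 at 0.754 and PRDX6 at 0.754. SLC25A5 and SLC25A6 had a correlation of 0.546 with each other, and SLC25A3 and SLC25A1 one of −0.635. These are descriptions over libraries of total and bound RNA that share lines and tables.

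SLC25A6 and SLC25A1 were among the most abundant carriers in RNA and had no footprint cluster in any line. No cluster was called either on any of the 13 protein-coding genes of the tip of chromosome X around SLC25A6 that the sheets list, of which 5 had a mean bound level of at least 1 RPKM. Among all 488 abundant protein-coding genes, 71 had no cluster in any line.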
